A study of Mus musculus with 6 samples.

Results

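Genes of the tricarboxylic acid (TCA) cycle, of the entry of pyruvate into it and of the malate-aspartate shuttle were examined in the striatum of mice without PGC-1alpha. The group is a list of 32 genes chosen by function: 15 encode cycle enzymes or their close relatives, 4 the core subunits of pyruvate dehydrogenase, 4 its kinases, 3 pyruvate carriers or pyruvate carboxylase, 3 shuttle enzymes and 3 malic enzymes. Of the 12323 named genes whose expression was tested, 31 belong to the list, each represented by its brightest probe set annotated to that gene alone. Mpc2, the second subunit of the mitochondrial pyruvate carrier, was not analysed here, because no probe set was assigned to it alone in the annotation used.

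The TCA cycle oxidises acetyl-CoA in the mitochondrial matrix and passes the electrons to the respiratory chain as NADH and as reduced flavin. Pyruvate from glycolysis reaches the matrix through a carrier and is turned into acetyl-CoA by the pyruvate dehydrogenase complex, which kinases (Pdk) switch off and phosphatases (Pdp) switch on. The malate-aspartate shuttle moves the electrons of cytosolic NADH into mitochondria and is a main route for this in neurons. PGC-1alpha, encoded by Ppargc1a, coactivates nuclear receptors such as the oestrogen-related receptors and the factor NRF1, and is known in muscle, heart and liver as an activator of many genes of mitochondrial metabolism.

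Striatal RNA came from 3 PGC-1alpha null mice (PGC-1a-/-, here KO) and 3 wild-type littermates (PGC-1a+/+, WT), female and 6 months old, bred from heterozygous founders. The labels restrict the null allele to no cell type, and each mouse had its own Affymetrix array. Values are MAS5 signals, an intensity on a linear scale that had been brought to the same trimmed mean on every array, so differences are relative to the rest of the array. The Ppargc1a transcript itself read 59.3 to 123 in KO and 156 to 397 in WT over its 5 probe sets, and the groups overlapped in none. Striatal markers were strong in all mice (Ppp1r1b, the phosphatase inhibitor DARPP-32, read at least 3213, and Penk, the enkephalin precursor, at least 5939). The label of the third KO mouse (KO 3) names cytoplasmic RNA where the other labels and the series design name total RNA, so the difference without this array is given for each gene of the list that it moved by over 1.5 times. Over all 27022 probe sets tested, 127 (0.47%) passed a limma adjusted p under 0.05, 79 lower and 48 higher in KO, and centring each array on its median gave 57 lower and 59 higher.

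Most transcripts of the cycle and of its feeding reactions read slightly lower in KO striatum, and a single gene of the list passed the test across the array. Pdk4, a pyruvate dehydrogenase kinase, fell, and the other 30 genes did not pass (adjusted p under 0.05, lower in KO, was met by 0.292% of all probe sets tested). Differences are given as KO minus WT in log2(signal + 16), on which -0.14 is a change of -9.23%. Of the 31 genes 26 were below 0, against 51.1% of all probe sets, and the median was -0.14, against -0.0045 over all probe sets tested. Every KO mouse lay below every WT mouse for 10 of the 31 genes, against 7.88% of all probe sets, and none showed the reverse, against 6.52%. An unadjusted p under 0.05 with the lower value in KO was reached by 11 genes, against 5.06% of all probe sets, and with the higher value in KO by 0 genes, against 4.11%. The 11 genes became 7 without KO 1 or without WT 1, and 6 after median centring of the arrays, a setting that moved the median of all probe sets to 0.039. The 10 genes without overlap became 16 without KO 1. With 1 mouse fewer, non-overlap is easier to meet for any probe set. The share over all probe sets is not given for that setting, so the rise is not a result about the list.

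Among the 2605 named genes with a mean signal over 500, where most of the cycle enzymes lie, 44.5% were lower in KO. The median of the list in single mice, relative to the WT mean, was -0.14, -0.12 and -0.19 in the KO mice and 0.052, -0.0032 and -0.048 in the WT mice. The groups were thus separate for the list median, with KO 3 lowest and WT 1 highest. Without KO 3 the difference had a median of -0.10 over the 31 genes. In bulk tissue, less RNA per cell and fewer cells of a type that expresses a gene strongly cannot be told apart. The plot of every gene in every mouse shows these values by role.

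**Figure D1:**
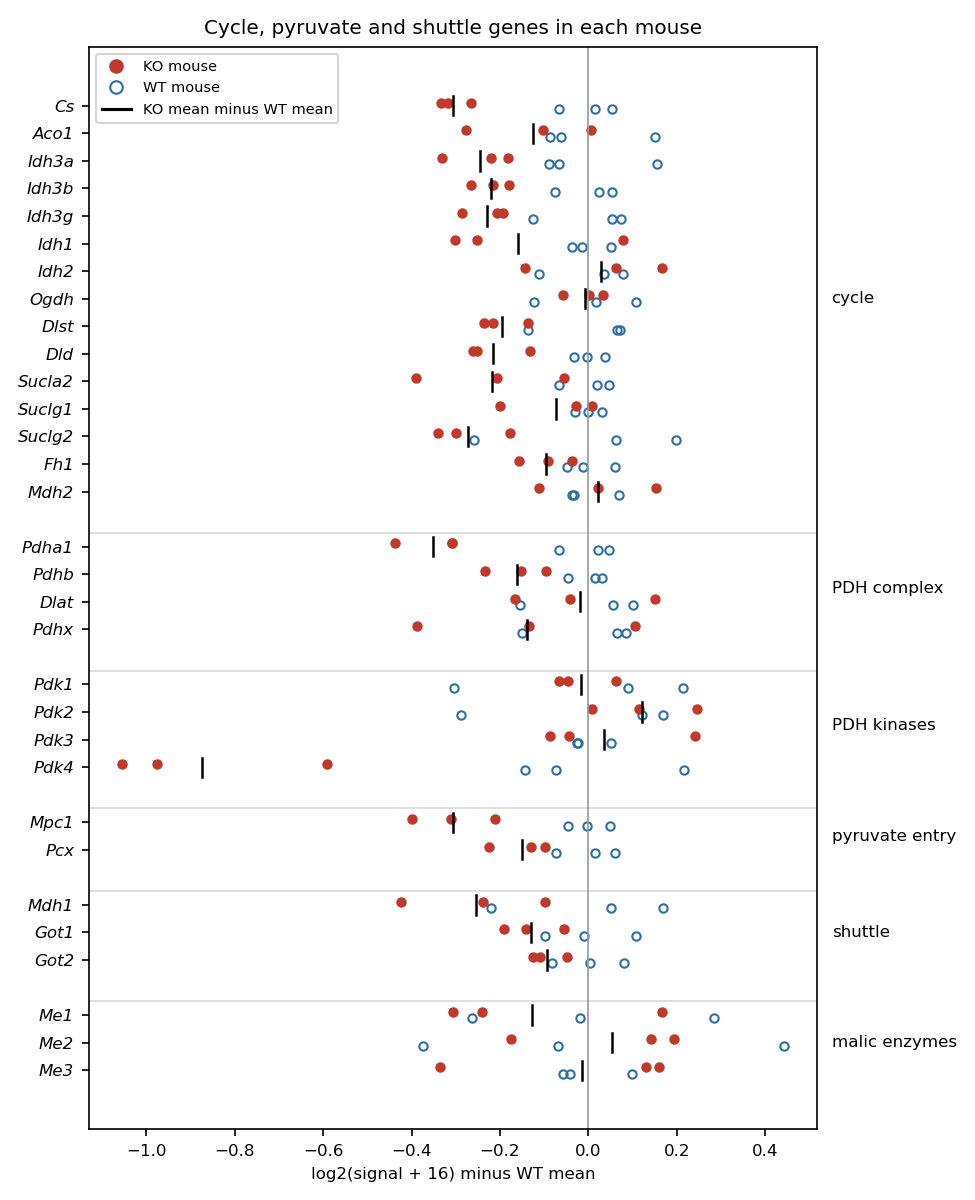
Each row is 1 gene and each point 1 mouse, as log2(signal + 16) minus the WT mean (filled, KO; open, WT), with a black tick at the difference of the group means. Pdk4 lies farthest to the left at -0.87. The KO points lie wholly to the left of the WT points in 5 of 15 cycle and 2 of 4 pyruvate dehydrogenase genes, against 7.88% of all probe sets tested. The other kinases and the malic enzymes are mixed.

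The promoters of 3 genes with low values in KO (Pdk4, Pdha1 and Cs) and of 1 gene with a match to the NRF1 element (Sucla2) are shown as the 250 bases before the annotated start, from RefSeq on GRCm38.p6, 5′ to 3′ in the direction of the gene. They lie at chr6:5496279-5496528 (minus strand), chrX:160138431-160138680 (minus strand), chr10:128337477-128337726 (plus strand) and chr14:73552536-73552785 (plus strand). Capitals mark matches, on either strand, to the NRF1 element, to AGGTCA, the core of many nuclear receptor sites, to CCAAT or to GGGCGG, the GC box.
Pdk4: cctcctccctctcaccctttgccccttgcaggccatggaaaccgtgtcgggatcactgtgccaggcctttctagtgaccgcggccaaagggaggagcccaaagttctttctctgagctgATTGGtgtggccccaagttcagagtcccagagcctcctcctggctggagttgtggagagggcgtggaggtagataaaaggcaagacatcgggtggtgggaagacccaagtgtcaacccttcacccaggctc
Pdha1: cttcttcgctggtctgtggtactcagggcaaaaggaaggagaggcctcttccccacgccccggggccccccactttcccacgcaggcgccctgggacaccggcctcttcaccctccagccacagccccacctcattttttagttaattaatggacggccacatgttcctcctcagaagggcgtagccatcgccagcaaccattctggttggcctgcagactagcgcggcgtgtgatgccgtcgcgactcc
Cs: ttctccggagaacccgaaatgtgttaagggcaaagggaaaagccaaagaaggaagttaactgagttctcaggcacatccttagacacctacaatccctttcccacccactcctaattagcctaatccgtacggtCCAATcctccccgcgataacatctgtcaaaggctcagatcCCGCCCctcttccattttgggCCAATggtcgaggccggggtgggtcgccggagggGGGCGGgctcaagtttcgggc
Sucla2: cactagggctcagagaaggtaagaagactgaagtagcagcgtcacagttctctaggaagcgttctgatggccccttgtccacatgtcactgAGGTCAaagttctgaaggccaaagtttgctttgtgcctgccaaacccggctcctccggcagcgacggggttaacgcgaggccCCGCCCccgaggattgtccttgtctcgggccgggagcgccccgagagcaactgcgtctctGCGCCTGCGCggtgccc

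At least 1 window from 250 bases before to 50 after an annotated start was at hand for 30 of the 32 genes. A gene was counted if any of its windows held a match, over 32851 windows in all. Several genes of the list, among them Ogdh, had more than 1 window, which gives more chances of a match. The extended element of the oestrogen-related receptors, TCAAGGTCA, was in a window of 0 of these 30 genes and of 0.466% of all 27025 genes with a window. Its shorter form AAGGTCA was found in Got1 and Ogdh (6.67%, against 5.38% of all genes), and the NRF1 element in Dld and Sucla2 (6.67%, against 5.19%). AGGTCA, which lies inside both longer elements, was in 8 of 30 (26.7%, against 18.1%), CCAAT in 19 (63.3%, against 41.1%) and GGGCGG in 20 (66.7%, against 38.2%). The last 3 elements were added after the values were seen. In the sequences printed above, Pdha1 held no match to any of them, Pdk4 held 1 CCAAT match on the opposite strand, Cs held CCAAT and GGGCGG matches, and Sucla2 held matches to the NRF1 element, AGGTCA and GGGCGG. The windows cover only the region next to the start, and a match is not evidence of binding.

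Pdk4, whose product phosphorylates and silences pyruvate dehydrogenase and which fasting induces in muscle and liver, had the largest difference of the list. Its signal was 67.2, 71.9 and 98.8 in the KO mice and 141, 185 and 148 in the WT mice. All 3 KO mice were below all 3 WT mice, and KO 3 was the highest of the KO mice. The means were 79.3 ± 17.1 in KO and 158 ± 23.7 in WT (SD, n = 3 each), a difference of -0.87 (SE 0.16, limma adjusted p = 0.039) with a 95% interval of -1.23 to -0.52, or -45.4% on that scale. Of its 20 nearest tested neighbours on the chromosome, 0 were called, against 0.47% of all probe sets. At so low a share, 20 neighbours cannot show whether the region differs. Leaving out KO 3 left the call in place (difference -1.02, adjusted p = 0.027), but it was lost without KO 1 (0.15), KO 2 (0.17), WT 1 (0.065), WT 2 (0.16) or WT 3 (0.087), with no filter on dim probe sets (0.13), with no trend in eBayes (0.22) and with replicate number as a blocking factor (0.063). The difference ran from -1.02 to -0.77 without any 1 array, and a two-sided exact permutation test gave p = 0.1, the smallest that 3 against 3 allows.

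The remaining kinases act on the same subunit of the complex, and their values overlapped between the groups. Pdk2, the most widely expressed of them in the body, read 176, 162 and 194 in the KO mice and 177, 183 and 129 in the WT mice. The difference was 0.12 (SE 0.14), with a 95% interval of -0.19 to 0.43, so a change of the size seen in Pdk4 lies outside it. For Pdk1, which hypoxia induces, the signal was 168, 182 and 165 in the KO mice and 138, 186 and 204 in the WT mice. That gave -0.017 (SE 0.14) with an interval of -0.32 to 0.29, and WT 1 was the lowest of the 6 mice. Pdk3 read 213, 166 and 172 in the KO mice and 185, 174 and 175 in the WT mice, a difference of 0.036 (SE 0.12) with an interval of -0.23 to 0.30. None of these 3 intervals reaches the upper end of the interval of Pdk4. The signs of Pdk1, Pdk2 and Pdk3 each turned without some 1 array, and that of Pdk1 also after median centring of the arrays (0.027). Without KO 3, Pdk1 gave 0.0078, Pdk2 0.060 and Pdk3 0.076.

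**Figure D2:**
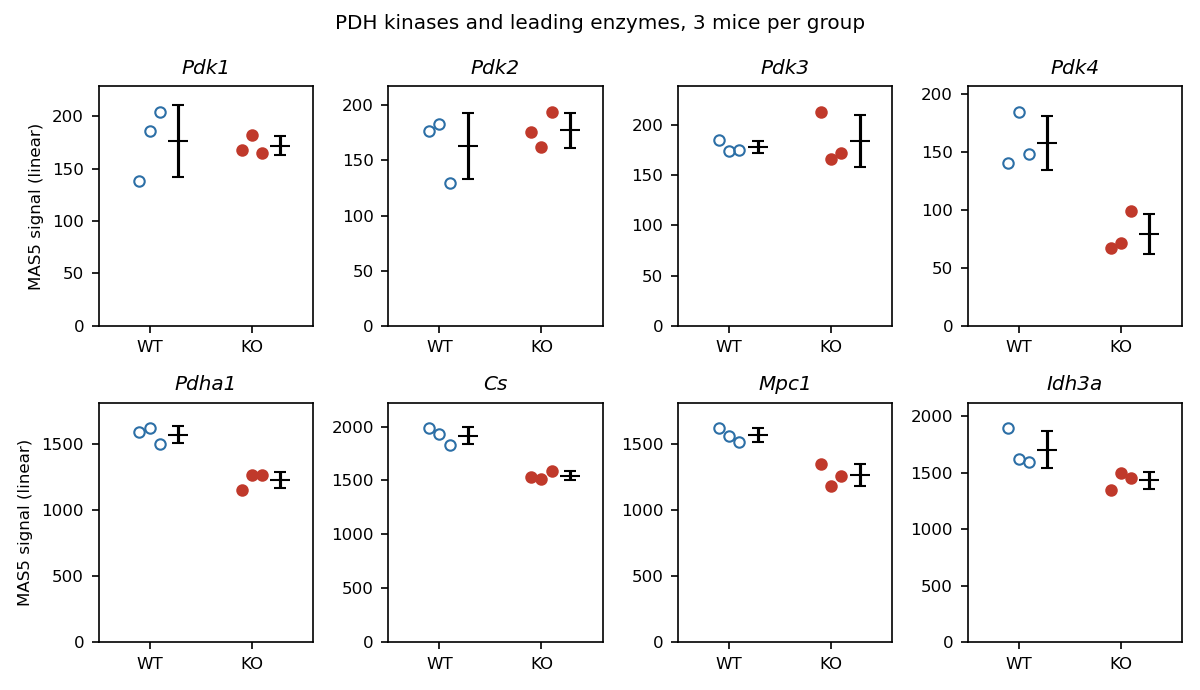
MAS5 signal on a linear axis from 0 in each WT (open) and KO (filled) mouse for the 4 kinases and for Pdha1, Cs, Mpc1 and Idh3a, with the mean and SD of 3 mice in black beside the points. The groups are apart for Pdk4 and for the 4 enzymes and carriers in the lower row, and overlap for Pdk1, Pdk2 and Pdk3.

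The subunits of pyruvate dehydrogenase were all below 0 by their brightest probe sets, led by the subunit that the kinases phosphorylate. Pdha1, the catalytic E1 alpha subunit, read 1157, 1267 and 1267 in the KO mice and 1595, 1623 and 1501 in the WT mice. No KO mouse reached the lowest WT mouse. The difference was -0.35 (SE 0.072, limma adjusted p = 0.066), or -21.6% with a 95% interval of -29.7% to -12.6%, and it passed after quantile normalization alone (adjusted p = 0.038, with a range up to 0.39 over the alternatives). A second Pdha1 probe set gave -0.41 (adjusted p = 0.086), again with no overlap. Its partner in the E1 enzyme, Pdhb, read 1532, 1622 and 1688 in the KO mice and 1844, 1748 and 1825 in the WT mice. The groups did not overlap, and the difference of -0.16 (SE 0.069) had a limma unadjusted p of 0.037 and an adjusted p of 0.48.

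The E2 and E3-binding subunits were nearer to 0. Dlat, the acetyltransferase core, read 373, 468 and 408 in the KO mice and 452, 376 and 438 in the WT mice, a difference of -0.019 (SE 0.11) with overlapping groups, and its 3 probe sets ran from -0.12 to 0.040. Pdhx, which anchors E3 in the core, gave -0.14 (SE 0.15), with KO 3 lowest at 114 and KO 2 highest at 168 of the 6 mice. Without KO 3, Pdhx gave -0.015 and Dlat -0.0084. Dld, the E3 dehydrogenase shared with the 2-oxoglutarate complex, read 463, 465 and 507 in the KO mice and 572, 556 and 544 in the WT mice. There the groups were apart, with -0.22 (SE 0.082) and a limma unadjusted p of 0.022 (adjusted 0.42).

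Upstream of the complex, Mpc1, an obligate subunit of the pyruvate carrier in the inner membrane, read 1352, 1186 and 1261 in the KO mice and 1623, 1564 and 1519 in the WT mice. Every KO mouse was below every WT mouse, and the difference of -0.31 (SE 0.074, limma adjusted p = 0.13), or -19.2% with an interval of -27.6% to -9.69%, did not pass. Pcx, pyruvate carboxylase, makes oxaloacetate from pyruvate and is found mainly in astrocytes in brain. Its signal of 227, 211 and 232 in the KO mice and 261, 252 and 236 in the WT mice did not overlap between groups, although the difference was small, -0.15 (SE 0.10), with an interval of -0.37 to 0.069. The astrocyte marker Aldh1l1 gave -0.20 and Slc1a2, a glutamate transporter, 0.024, neither passing. S100b, another astrocyte marker, gave -0.37 without overlap (limma adjusted p = 0.11). In all, 3 of 8 astrocyte markers were below 0 and 5 above. The pyruvate dehydrogenase phosphatases (Pdp1, Pdp2) and their regulator (Pdpr), from the list of pathway partners, did not pass either. Pdp1, the phosphatase that reactivates the complex in brain and muscle, read 2416, 2450.2 and 1868 in the KO mice and 2112, 1492 and 1418 in the WT mice, a difference of 0.43 (SE 0.14, limma adjusted p = 0.32) in the direction opposite to the complex, with WT 1 inside the KO range. The second Pdp1 probe set gave 0.55 (limma adjusted p = 0.31). Without 1 array its difference ran from 0.37 to 0.81 and its limma adjusted p from 0.013 to 0.64. For the brightest Pdp1 probe set these ran from 0.32 to 0.61 and from 0.051 to 0.64. The plot of intervals for pyruvate entry sets these genes side by side.

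**Figure D3:**
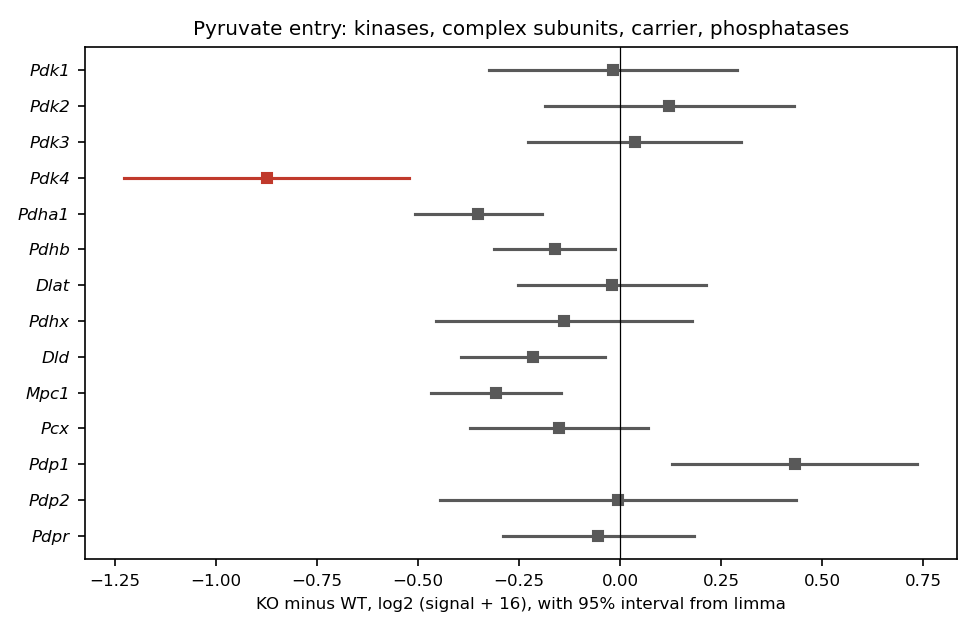
KO minus WT difference in log2(signal + 16) with its 95% limma interval for kinases, complex subunits, the carrier, pyruvate carboxylase and phosphatases; red marks an adjusted p under 0.05. Pdk4 at -0.87 stands apart from Pdk1, Pdk2 and Pdk3, Pdha1 and Mpc1 lie near -0.3, and Pdp1 lies at 0.43.

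In the first steps of the cycle, from citrate to 2-oxoglutarate, citrate synthase and the NAD-dependent isocitrate dehydrogenase were lower in every KO mouse by their brightest probe sets. Their NADP-dependent relatives were not set apart. Of the 15 cycle genes 13 were below 0, against 51.1% of all probe sets, with a median of -0.20, and per-mouse medians of -0.14, -0.18 and -0.22 in KO and 0.052, -0.0032 and -0.048 in WT. No cycle gene passed the adjusted threshold, and 6 had an unadjusted p under 0.05 with the lower value in KO, against 5.06% of all probe sets. The median was -0.13 without KO 3 and -0.15 after median centring of the arrays.

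Cs, citrate synthase, which joins acetyl-CoA to oxaloacetate and is often used as a measure of mitochondrial content, read 1532, 1515 and 1589 in the KO mice and 1984, 1934 and 1826 in the WT mice. The KO mice were close together and all below the lowest WT mouse. The difference was -0.31 (SE 0.068, limma adjusted p = 0.094), or -19.1% with an interval of -26.9% to -10.4%, and the other 2 Cs probe sets gave -0.24 and -0.22, each without overlap. Aco1, the cytosolic aconitase that doubles as the iron-regulatory protein, gave -0.12 (SE 0.11) with overlapping groups, and -0.048 without KO 3. That probe set is of a type that can bind related sequences, and a dimmer Aco1 probe set gave -0.19 with overlap.

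NAD-dependent isocitrate dehydrogenase, a rate-controlling step of the cycle that calcium activates, has 3 kinds of subunit. Idh3a, the catalytic one, read 1347, 1495 and 1454 in the KO mice and 1892, 1619.8 and 1596 in the WT mice. Idh3b, a regulatory subunit, read 1883, 1932 and 1819 in the KO mice and 2227, 2270.3 and 2075 in the WT mice, and Idh3g, the other regulatory subunit, 1068, 1128 and 1139.8 in the KO mice and 1374, 1354 and 1194 in the WT mice. By these brightest probe sets, all 3 had no overlap between genotypes and nearly the same difference, -0.24 for Idh3a, -0.22 for Idh3b and -0.23 for Idh3g. The limma unadjusted p-values were 0.011, 0.0069 and 0.012, with adjusted p-values from 0.28 to 0.34. WT 1 was the highest mouse for Idh3a and Idh3g, and without it these became -0.17 and -0.19. A second Idh3b probe set gave -0.064 with overlap, and a second Idh3g probe set a smaller difference of -0.12 without overlap. The other Idh3a probe sets tested gave -0.22 without overlap and -0.26 with overlap.

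The NADP-dependent enzymes supply NADPH outside the oxidative route. Idh1, in the cytosol and peroxisomes, read 492, 389 and 374 in the KO mice and 460.4, 454 and 483 in the WT mice, and KO 1 was the highest mouse of all, while KO 2 and KO 3 were the lowest, for a difference of -0.16 (SE 0.11), or -0.086 without KO 3. For Idh2, in mitochondria, the values of 159, 186 and 200.5 in the KO mice and 162, 182 and 188 in the WT mice overlapped throughout, with 0.029 (SE 0.12) and an interval of -0.24 to 0.29. The Idh2 sign turned without KO 3 (-0.040), without WT 1 and with the mean of its probe sets.

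In the later steps of the cycle, from 2-oxoglutarate to oxaloacetate, the groups overlapped by the brightest probe set for each gene of the list but Dld. Ogdh, the first subunit of the 2-oxoglutarate dehydrogenase complex, read 551, 588 and 575 in the KO mice and 619.6, 581 and 526 in the WT mice, a difference of -0.0074 (SE 0.086) with an interval of -0.19 to 0.18, and -0.012 without KO 3. Dlst, its succinyltransferase, read 351, 326 and 331 in the KO mice and 406, 408 and 351 in the WT mice. KO 1 and WT 3 had the same signal, and the difference was -0.20 (SE 0.095), with an unadjusted p of 0.060 in limma. Within this one complex the subunits therefore ran from about 0 for Ogdh to -0.22 for Dld, although the intervals of the 3 overlap.

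Succinyl-CoA ligase makes ATP or GTP depending on its beta subunit. Sucla2, the ATP-forming beta subunit that predominates in brain, read 1247, 1387 and 1097 in the KO mice and 1491, 1376 and 1463 in the WT mice. KO 2 lay just above the lowest WT mouse, and the difference was -0.22 (SE 0.088) with a limma unadjusted p of 0.028; without KO 3 it was -0.13. Suclg2, the GTP-forming beta subunit, gave -0.27 (SE 0.13) with KO values from 194 to 219 and WT values from 206 to 289. Its dimmer probe set read 63.6, 51.9 and 33.9 in KO and 81.7, 84.8 and 94.0 in WT, a larger difference of -0.67 (adjusted p = 0.24) with no overlap. Suclg1, the alpha subunit that both forms share, was nearer to 0 at -0.074 (SE 0.076), with an interval of -0.24 to 0.092, and -0.011 without KO 3.

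The last steps showed no separation of the genotypes by their brightest probe sets. Fh1, fumarase, gave -0.10 (SE 0.075) from 863, 896 and 824 in the KO mice and 961, 912 and 890.1 in the WT mice. Mdh2, the mitochondrial malate dehydrogenase that closes the cycle and also serves the shuttle, read 3940.2, 4732 and 4322 in the KO mice and 4465, 4152 and 4166 in the WT mice, a difference of 0.020 (SE 0.076). A second Mdh2 probe set gave -0.18 with overlap, so the probe sets of Mdh2 did not point one way.

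The shuttle enzymes were each below 0, with groups that overlapped by the brightest probe sets. Mdh1, the cytosolic malate dehydrogenase, read 6455, 5858 and 5149.8 in the KO mice and 5930.2, 7164 and 7770.1 in the WT mice. KO 1 was above WT 1, and the difference was -0.25 (SE 0.10) with a limma unadjusted p of 0.029, and -0.17 without KO 3. That probe set is of a type that can bind related sequences, as is the second brightest, which gave -0.11 with overlap. The third brightest Mdh1 probe set, without this limit, gave -0.22 with no overlap. The dimmest of the 4 tested gave -0.19 with overlap, and all 4 were below 0. Got1, the cytosolic aspartate aminotransferase, read 2236, 2377 and 2160.2 in the KO mice and 2660.5, 2452 and 2307 in the WT mice, a difference of -0.13 (SE 0.074). Got2, its mitochondrial counterpart, read 1596, 1514 and 1530.0 in the KO mice and 1748, 1656 and 1559 in the WT mice, a difference of -0.095 (SE 0.071) with an interval of -0.25 to 0.059. For both aminotransferases a single WT mouse, WT 3, lay within the KO range by the brightest probe set. A second Got2 probe set gave -0.16 without overlap, and the dimmest Got2 probe set tested gave -0.20 with overlap. Of the shuttle's carriers, taken from the partner list, Slc25a11, which exchanges malate for 2-oxoglutarate, read 553, 522 and 533 in the KO mice and 575, 645 and 653 in the WT mice and gave -0.21 (SE 0.083) without overlap. Slc25a12, the aspartate-glutamate carrier of neurons, gave -0.12 (SE 0.075) without overlap, and Slc25a13, the carrier form of liver, 0.29 (SE 0.21) with overlap. None of the 3 passed adjustment.

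The malic enzymes, which turn malate into pyruvate, overlapped between the genotypes, with wide spreads within them. Me1, the cytosolic form that makes NADPH, read 191, 182 and 259 in the KO mice and 282, 188 and 226 in the WT mice, a difference of -0.13 (SE 0.16). Its dimmer probe set read 94.7, 62.1 and 179 in KO and 193, 104 and 179 in WT, a larger difference of -0.51 with overlap. Me2, a mitochondrial form, read 217, 226 and 171 in the KO mice and 271, 147 and 186 in the WT mice, a difference of 0.054 (SE 0.18). Me3, the other mitochondrial form, read 285, 291 and 202 in the KO mice and 251, 279 and 248 in the WT mice, a difference of -0.015 (SE 0.13). Without KO 3 these became -0.27 for Me1, 0.17 for Me2 and 0.14 for Me3, so that the sign of Me3 turned.

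Beside these stand the markers of neighbouring regions, which also varied within genotypes. The summed signal of 3 cortical markers (Slc17a7, Neurod6 and Tbr1) was 178, 181 and 529 in the KO mice and 406, 318 and 185 in the WT mice. That of 4 thalamic markers (Tcf7l2, Slc17a6, Prkcd and Rora) was 1408, 1581 and 1266 in KO and 1922, 578 and 873 in WT. As differences, all 4 thalamic markers were above 0, with a median of 0.68 and Tcf7l2 highest at 0.87. Their groups overlapped and none passed the adjusted threshold. Of the 3 cortical markers 2 were below 0 (median -0.18), against 51.1% of all probe sets. WT 1 had the highest and WT 2 the lowest thalamic sum, and the same was so of Me2. KO 3 and WT 1 had the highest cortical sums, and the Me1 signal was highest in the same pair. The part of these tissues in the values of Me1, Me2 and Pdp1 was not tested.

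The probe sets of a gene gave like directions in most cases. The 31 genes had 70 probe sets annotated to them alone, of which 62 passed the filter on dim signals. Of these 51 were below 0, against 51.1% of all probe sets, 20 had every KO mouse below every WT mouse, against 7.88%, and 0 had the reverse, against 6.52%. Several probe sets passed the filter for 20 genes: in 13 genes all were below 0, in 7 the signs were mixed (Idh2, Ogdh, Dlst, Mdh2, Dlat, Pdk1 and Me2), and in 0 were all above 0. The mixed genes were those with differences near 0 by the brightest probe set, except Dlst, whose 2 dimmest gave -0.0021 and 0.11.

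**Figure D4:**
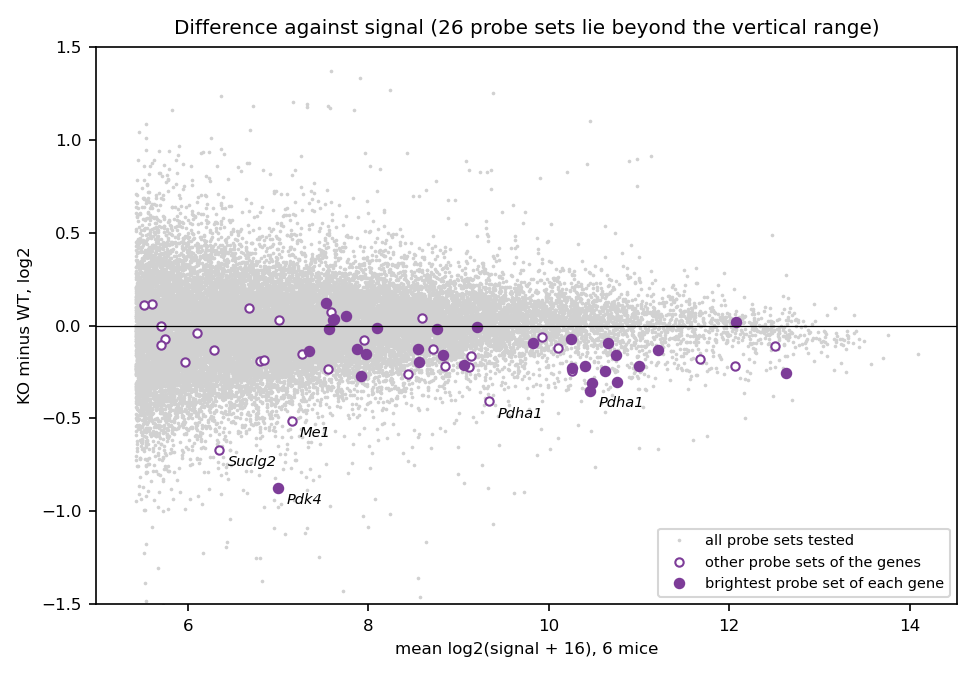
KO minus WT difference against mean log2(signal + 16) over 6 mice for all 27022 probe sets tested (grey), the brightest probe set of each gene of the list (filled) and its other probe sets (open); 26 grey points lie beyond the vertical range of 1.5. Most filled points lie just below the zero line at high signal, and Pdk4 at -0.87 and the dim Suclg2 probe set at -0.67 lie lowest.

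Other genes that act on the same metabolites were taken from a list of 48 partners, of which 42 were tested. Their median was -0.10 and 30 were below 0, against 51.1% of all probe sets. By brightest probe sets, every KO mouse was below every WT mouse in 15, against 7.88% of all probe sets, and above in 1, against 6.52%. Glud1, glutamate dehydrogenase, which feeds 2-oxoglutarate into the cycle, was the only one called, against 0.47% of all probe sets. It fell from WT values of 1656, 1650.2 and 1829 to 1134, 1092 and 1217 in KO, a difference of -0.57 (SE 0.075) with a limma adjusted p of 0.0045, and stayed called without any 1 array (adjusted p up to 0.029), but was lost with no trend in eBayes (0.21). The second Glud1 probe set gave a smaller difference of -0.34 without overlap and was not called (adjusted p = 0.084). Of its 20 nearest tested neighbours on chromosome 14, 3 were called as well (Mapk8, Ldb3 and Cdhr1), against 0.47% of all probe sets. Whether the Glud1 value belongs to the gene or to its region was not tested.

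Succinate dehydrogenase, the cycle's link to the respiratory chain, gave -0.24 for Sdha, -0.33 for Sdhb and -0.33 for Sdhc without overlap, and -0.085 for Sdhd with overlap. Mrps36, a small protein that binds the 2-oxoglutarate dehydrogenase complex, gave -0.28 (SE 0.10) without overlap. Acss1, the mitochondrial acetyl-CoA synthetase that lets acetate enter the cycle, read 115, 125 and 112 in the KO mice and 166, 179 and 175 in the WT mice. The groups were far apart and the difference was -0.51 (SE 0.12), but the adjusted p was 0.11. D2hgdh, which returns D-2-hydroxyglutarate to 2-oxoglutarate, gave -0.38 (SE 0.12) without overlap. By brightest probe sets, Gpt2, the mitochondrial alanine aminotransferase, was the 1 partner with every KO mouse above every WT mouse. It read 378, 402 and 430.1 in the KO mice and 314, 354 and 305 in the WT mice. The difference of 0.30 (SE 0.10) did not pass (limma adjusted p = 0.31). A dimmer probe set of the partner Glul also lay above WT in every KO mouse (0.32), while its brightest gave -0.049 with overlap. For the use of lactate, Ldhb gave -0.15 (SE 0.063) and Slc16a1, a monocarboxylate transporter of glia and vessels, -0.27 (SE 0.10), each without overlap and neither passing. Acly, which splits exported citrate in the cytosol, gave 0.041 (SE 0.076) with an interval of -0.12 to 0.20. Glud1, Acss1, D2hgdh and Gpt2 are named by their values, and the other partners of this paragraph by their role. Not every partner of a role is described above. In the same roles, Dhtkd1 gave -0.063 and Ldha -0.15, each with overlap, and Slc16a7 -0.31 without overlap.

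Cell type markers were set beside these values. Of 5 markers of parvalbumin interneurons 4 were below 0, with a median of -0.34. Their summed signals were 3885 to 4543 in KO and 4619 to 6756 in WT. Cplx1 was the largest part of each sum, with 2572 to 2741 in KO and 2938 to 3918 in WT. Syt2 also had no overlap, whereas Kcnc1 overlapped and Kcnc2 gave 0.20 with overlap. Pvalb itself overlapped, with 476, 748 and 444 in the KO mice and 1362, 652 and 701 in the WT mice. Whether these values reflect cell number or expression per cell was not tested. Oligodendrocyte markers had 5 of 6 below 0 (median -0.18), with sums of 23895 to 25802 in KO and 24337 to 29331 in WT. Among them, Mag gave -0.43 without overlap (limma adjusted p = 0.11) and Cldn11 0.25 with overlap. Striatal projection neuron markers had 1 of 8 below 0 (median 0.085, sums of 26695 to 29341 in KO and 24723 to 29321 in WT), pan-neuronal markers 4 of 6 (median -0.048) and astrocyte markers 3 of 8 (median 0.017). Endothelial markers, 4 of 5 below 0, had sums of 619.5 to 842 in KO and 708 to 826 in WT, and microglial markers, 3 of 7 below 0, of 3376 to 3866 in KO and 3311 to 3803 in WT. Cholinergic markers had 2 of 3 below 0. No marker of these lists passed the adjusted threshold. Of the choroid plexus list only Ttr, transthyretin, was called, higher in KO by 0.91 (SE 0.17), while Kl, Folr1 and Kcne2 were too dim to test. The part of these cell types in the differences of the cycle genes was not tested.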

How the data were processed

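Striatal RNA of 3 KO and 3 WT mice was measured on 6 arrays of 45101 probe sets. The deposited intensity values are linear MAS5 signals per the submitters' processing notes, and no MAS5 version is given in the sources used. On each array the deposited intensities averaged 150.0 once the lowest and highest 2% were removed, so a change in total RNA could not be seen. Control probe sets (64) were left out. Of the others, 34945 had 1 gene symbol, 932 several and 9160 none in the annotation used, and 34741 were matched to the GRCm38.p6 gene table to update symbols.

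Signals were analysed as log2(signal + 16), which understates changes of dim genes. A filter removed probe sets whose mean log2 signal was not above the 40th percentile, a signal of about 26.8. Genotypes were compared with limma 3.58.1 in R 4.3.3 (lmFit and trended eBayes), with Benjamini-Hochberg adjustment across the 27022 probe sets tested. The fit was tested on simulated data. The labels do not say whether same-numbered mice share a litter or day, and these did not deviate together (correlations of -0.0091, -0.035 and 0.017), so no block was used. All 32 genes are named, with fuller statistics for an unadjusted p under 0.05 and for kinases, carriers and Pcx; of the partners the rule took called genes, and others were chosen by role or after their values were seen. Genes, lists and tests were chosen with earlier results of these data known. Alternatives changed the normalization (quantile, median centring), the offset (1, 64), the filter (none, 60th percentile), eBayes (untrended, robust), the threshold (0.1), the probe set rule (mean per gene), added a replicate block, or omitted 1 array. The number of arrays limits the precision.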

Additional observations from a re-analysis of the deposited data

How the results depend on the processing

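The array-wide count of 127 calls became 130 with quantile normalization, 52 with no filter and 25 with untrended eBayes. It ran from 65 to 102 when 1 array was left out. The single call among the 32 genes became 2 with quantile normalization, 3 at an adjusted p under 0.1 and 0 with no filter, with untrended eBayes or with the replicate block, and ran from 0 to 1 when 1 array was left out. Among the partners 2 were called with quantile normalization, 2 at an adjusted p under 0.1 and 0 with untrended eBayes. The threshold of 0.1 is looser for every probe set, and its array-wide count is not given here. The counts at 0.1 are therefore not a result about the list or the partners. The replicate block gave 100 calls in all; same-numbered mice share only a number. The 11 genes with an unadjusted p under 0.05 became 6 after median centring and 4 with untrended eBayes, and 7 to 11 without 1 array. The 10 genes without overlap became 10 to 16 without 1 array, where non-overlap is easier to meet for any probe set. The median of the list was -0.10 after median centring. That of the cycle genes was -0.15 after median centring, -0.14 when a gene's probe sets were averaged and -0.21 to -0.13 without 1 array.

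Genes near 0 changed sign. After median centring, which shifts all differences upward, Ogdh gave 0.037, Dlat 0.025, Pdk1 0.027 and Me3 0.029. With probe sets averaged per gene, Idh2 gave -0.022, Ogdh 0.055, Mdh2 -0.081 and Me2 -0.0030. Without 1 array, the difference ran from -0.040 to 0.11 for Idh2, -0.069 to 0.046 for Ogdh, -0.045 to 0.087 for Mdh2, -0.10 to 0.054 for Dlat, -0.17 to 0.090 for Pdk1, -0.023 to 0.21 for Pdk2, -0.066 to 0.10 for Pdk3, -0.27 to 0.015 for Me1, -0.13 to 0.27 for Me2 and -0.10 to 0.14 for Me3. The causes were not tested.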
